A study of Mus musculus with 18 samples.

Results

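Glutamate, GABA and glycine receptors are the proteins through which neurons receive the main fast excitatory and inhibitory signals. The 37 receptor genes described here were listed by name, and all 37 were found among the 46078 genes of the RNA-seq count table. Open chromatin was taken from every ATAC-seq peak lying between 5000 bp upstream of a gene's start and the gene's end. This gave 206 of the 111664 peaks in 33 of the genes, while Gria3, Grm5, Gabrg1 and Glra2 held none. Cells came from mouse small cell lung cancer (SCLC), a neuroendocrine tumor, of 3 genotypes with 3 RNA-seq and 3 ATAC-seq libraries each. Cre deleted Rb1, Trp53 (p53) and a gene related to Rb1 in the lungs of TKO mice, and this last gene is Rbl1 in the sample labels but Rbl2 in the study's text. TKO;Carm1KO mice (CARM1 knockout) carried these alleles and a conditional allele of Carm1, the arginine methyltransferase. TKO;NfibR388K mice (NFIB mutant) carried them with a germline change of the NFIB arginine that CARM1 methylates to lysine, so this mutation was present in every cell of the animal. All mice were 8 weeks old when an adenovirus carrying Cre was given through the trachea, and tumors of 3 animals per genotype were taken 28 weeks afterwards. The labels do not name the promoter of Cre or pair the RNA-seq with the ATAC-seq libraries. The study's text says that both assays were run on the same biopsies. The study's methods describe a sort for the tdTomato reporter that Cre switches on.

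Ionotropic glutamate receptors are cation channels built from subunits of the AMPA, kainate and NMDA families, whereas metabotropic glutamate receptors signal through G proteins. GABA-A and glycine receptors are chloride channels, and the GABA-B receptor is a G protein-coupled heterodimer. Many of these genes are silent outside neurons and neuroendocrine cells, and several carry the binding element of REST, a repressor of neuronal genes in other tissues.

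Each RNA-seq library held between 15848866 and 20915057 counts on genes, and each ATAC-seq library between 26917178 and 47653979 counts on peaks. Levels are given as CPM, counts per 1000000 scaled with edgeR's TMM factors, and 3 counts or fewer in a library were taken as not detected, which covers counting error only. Carm1 transcripts were 97.7, 103 and 44.5 CPM in TKO, 63.4, 79.1 and 50.8 CPM in CARM1 knockout and 100.4, 104 and 102 CPM in NFIB mutant libraries. Carm1 was not called in either comparison (adjusted p = 0.410 and 0.426), and a count over the whole gene does not show whether the deleted exons were lost. Nfib itself fell in both mutants, with log2 fold changes of -2.06 (adjusted p = 0.00799) and -2.49 (adjusted p = 0.00325).

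The labelled cell type was checked against marker lists before the receptors were compared. The summed level of 12 neuroendocrine markers was 1891, 1892 and 4399 CPM in TKO, 59.4, 188.5 and 1889 CPM in CARM1 knockout and 45.9, 34.0 and 51.3 CPM in NFIB mutant libraries. The summed marker transcripts of the labelled neuroendocrine cell type were thus low in 5 of the 6 mutant libraries, at 34.0 to 188.5 CPM. CARM1 knockout library 3 stood apart from them, but Calca alone gave 833.3 CPM of its sum, against 21.96, 11.37 and 5.14 CPM in TKO. In that library Chga, Dll3 and Scg2 lay within the TKO range, and the remaining markers lay below every TKO library. Insm1, for example, was at 83.93 CPM there and at 256.7, 326.4 and 253.6 CPM in TKO. The sum of 1889 CPM thus does not show a TKO-like level of these markers. In CARM1 knockout library 2, Ncam1 gave 148.8 of the 188.5 CPM. The 6 fibroblast markers summed to 11.2 to 63.4 CPM in TKO, 14460 to 25790 CPM in CARM1 knockout and 9479 to 15920 CPM in NFIB mutant libraries, and 6 and 5 of them rose. Leukocyte markers summed to 4.17 to 54.8 CPM, 179.8 to 2670 CPM and 27.1 to 526 CPM, with 6 and 2 of 7 tested genes higher and Cd3e at 0 in all libraries. Neuron markers summed to 1035 to 1773 CPM, 69.9 to 249 CPM and 51.0 to 78.4 CPM, with 6 and 8 of 8 tested genes lower. Glia markers summed to 91.2 to 116 CPM, 14.03 to 82.6 CPM and 41.8 to 54.6 CPM, with Mog and Olig2 at 0 throughout and 2 and 1 of 3 tested genes lower. In TKO, Mbp alone gave 85.95, 110.8 and 83.35 CPM of the glia sums. Lung epithelium markers ranged from 282 to 634 CPM in TKO, 3.46 to 880.1 CPM in CARM1 knockout and 3.11 to 2906 CPM in NFIB mutant libraries. Of 9 tested, 0 and 5 were higher and 1 and 1 lower. In TKO, Nkx2-1 alone gave 601.0, 386.5 and 236.3 CPM of these sums, and it was lower but not called in the mutants (adjusted p = 0.235 and 0.132). Krt8, Krt18, Cdh1 and Sftpb did not exceed 3.22 CPM in TKO. Endothelium markers ranged from 5.86 to 21.3 CPM, 4.02 to 73.9 CPM and 1.82 to 12.2 CPM. The part of these cell type markers in the receptor results was not tested, and in bulk samples fewer cells of a type and less RNA per cell cannot be told apart.

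Most receptor genes that could be tested were lower in both mutants than in TKO. Of the 37 genes, 26 had enough counts for edgeR's quasi-likelihood test, in 1 model of all 9 libraries with Benjamini-Hochberg adjustment over 15514 genes. Calls required an adjusted p below 0.1 and a log2 change of 0.8 or more in size. With the mutant libraries alone, 8 receptor genes and 13678 of all genes passed the count filter. Most of the 26 thus passed only with the TKO libraries included. A gene that passed this way could hardly be called higher in a mutant. The receptor counts and medians are therefore a description of these genes. In CARM1 knockout tumors 15 receptor genes were lower and 1 was higher, where 18.3% of all genes tested were lower and 20.5% higher. In NFIB mutant tumors 19 were lower and 1 was higher, against 23.5% and 22.3% of all genes. Scaled by library totals alone, the receptor counts were again 15 and 19 lower, and the shares of all genes were 24.9% lower with 16.2% higher and 31.0% lower with 17.3% higher. Over the 26 genes the median log2 fold change was -2.83 (CARM1 knockout) and -5.05 (NFIB mutant), beside -0.03 and -0.05 over all genes, and with undetected genes set to their bounds it was -2.83 and -3.99. Both mutants shared 14 of the falls, and the gene that rose was Gabra3 in both. The mutants share their TKO controls, so the matching direction is not independent support. The other 11 genes had too few counts to test, and among them only Grm7, Gabra2 and Gabrg1 exceeded 2 CPM in any library.

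**Figure D1:**
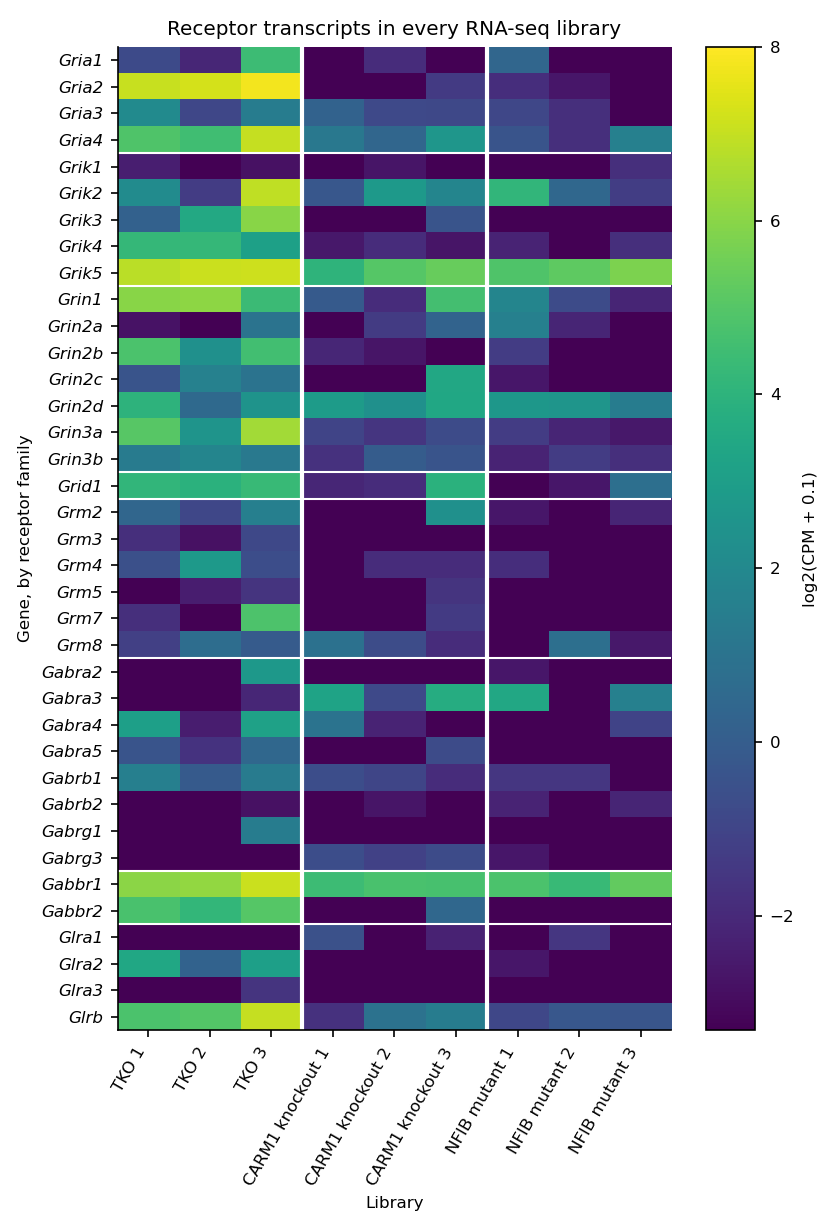
Transcript level of the 37 receptor genes (rows, by family) in each of the 9 RNA-seq libraries (columns), as log2(CPM + 0.1). Rows such as Gria2, Glrb and Gabbr2 are bright in the 3 TKO libraries and dark in the mutants. Many other rows are dark in part or all of the TKO libraries, and Grm7 and Gabra2 are bright in TKO library 3 alone. Grin1, Grin2c, Grid1 and Grm2 are brighter in CARM1 knockout library 3 than in the other mutant libraries.

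At the 204 receptor gene peaks that passed the filter, calls required an adjusted p below 0.1 and a log2 change of 0.5 or more in size, and a peak called lower or higher is said to have closed or opened. In CARM1 knockout tumors 120 peaks were lower and 47 higher, where 32.4% of the 111116 peaks tested were lower and 38.7% higher. In NFIB mutant tumors 123 were lower and 45 higher, against 34.0% and 39.3%. The median log2 fold change of the receptor peaks was -1.91 and -2.29, beside 0.22 and 0.22 over all peaks. Of the 23 peaks at promoters, 18 closed and none opened in both mutants, while among the 166 in introns 93 closed and 39 opened in both. Over all peaks of any place, 34171 of the 111116 closed and 38894 opened in both. Shares of all peaks by place were not computed, so the split by place only describes the receptor genes. The calls of several peaks in 1 gene are not independent. With the mutant libraries alone, 165 receptor peaks and 104087 of all peaks passed the filter, so some of the 204 passed only with TKO included.

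Ranked by mean level per kilobase of exon, the TKO libraries expressed Grik5 most (25.1 CPM per kb), followed by Glrb (13.4), Gabbr1 (11.8), Gria2 (10.95) and Gria4 (9.60). The ranges over TKO libraries were 21.9 to 27.4 CPM per kb for Grik5, 5.996 to 27.5 for Glrb, 8.497 to 17.5 for Gabbr1, 8.56 to 14.3 for Gria2 and 3.61 to 20.6 for Gria4. Grik5 was thus separate from Gabbr1, Gria2 and Gria4 in every TKO library, but not from Glrb, and the ranges of the other 4 overlapped.

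AMPA receptors carry most fast excitatory transmission, and GluA2, encoded by Gria2, makes them impermeable to calcium. Gria2 (ENSMUSG00000033981, GRCm38 chr3:80681450-80802835) was at 133, 155 and 223 CPM in TKO, at 0, 0 and 0.281 CPM in CARM1 knockout and at 0.182, 0.0617 and 0 CPM in NFIB mutant libraries. The groups did not overlap, and the transcript was close to absent from every mutant library, including CARM1 knockout library 3. The log2 fold change was -10.65 (SE 1.05, adjusted p = 0.000748) in CARM1 knockout tumors. In NFIB mutant tumors no library passed 3 counts, and the fall was at least 893-fold (adjusted p = 0.000534). Its only peak, chr3:80800030-80803582, spans the gene start. Accessibility there was 73.9, 69.8 and 61.4 CPM in TKO, 2.12, 2.17 and 3.41 CPM in CARM1 knockout and 1.76, 2.07 and 1.39 CPM in NFIB mutant libraries. This peak fell by 4.74 on the log2 scale in CARM1 knockout tumors (SE 0.26, adjusted p = 5.503e-06) and in NFIB mutant tumors its log2 fold change was -5.29 (SE 0.27, adjusted p = 3.74e-06).

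The promoter of Gria2 was the only 1 of 34 receptor gene promoters to hold a match to the RE1 consensus, the element that REST binds, and 0.0639% of 32851 promoters held it. Promoters are the RefSeq windows from 250 bases before to 50 after a start (GRCm38.p6), read 5′ to 3′ on the gene's strand, and 27 of the 37 genes had an entry. The 16 bases in capitals are the RE1 match, which began 170 bases before the start and lies inside the peak that closed. The sequence is shown because this single peak carries the only open chromatin assigned to Gria2 (chr3:80802786-80803085, - strand).
Gria2 promoter: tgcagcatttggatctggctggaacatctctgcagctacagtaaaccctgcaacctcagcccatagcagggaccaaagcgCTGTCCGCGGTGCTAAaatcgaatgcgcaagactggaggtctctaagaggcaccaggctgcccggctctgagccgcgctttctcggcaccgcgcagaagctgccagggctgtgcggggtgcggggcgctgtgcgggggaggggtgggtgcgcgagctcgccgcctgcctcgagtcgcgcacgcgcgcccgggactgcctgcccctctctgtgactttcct

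The other AMPA subunit genes had lower mean levels per kilobase in TKO. Gria4, next after Gria2 in that mean, was at 29.2, 22.7 and 129.7 CPM in TKO, 2.24, 1.23 and 6.07 CPM in CARM1 knockout and 0.669, 0.185 and 2.99 CPM in NFIB mutant libraries. It fell in both, with log2 fold changes of -4.25 (SE 1.18, adjusted p = 0.0276) and -5.56 (SE 1.27, adjusted p = 0.0113), and 5 of its 6 peaks closed in both. Gria3, an X-linked subunit, was at 4.18, 0.437 and 2.57 CPM in TKO, 1.09, 0.467 and 0.450 CPM in CARM1 knockout and 0.426, 0.185 and 0 CPM in NFIB mutant libraries. It was called lower only in NFIB mutant tumors (log2 fold change -3.51, adjusted p = 0.0452; -1.84 and 0.214 in CARM1 knockout), a call lost without TKO library 1 or NFIB mutant library 2 (adjusted p = 0.126 and 0.125). Summed per kilobase, AMPA subunit transcripts were at 13.7, 13.6 and 38.8 CPM per kb in TKO and at no more than 1.03 CPM per kb in any mutant library. Gria2 made up 62.5, 73.0 and 37.0% of the AMPA sum in TKO and Gria4 33.8, 26.5 and 53.1%, so Gria4 was the larger in TKO library 3.

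Gria1, which encodes GluA1, was above 2 CPM in 1 library only. It was at 0.480, 0.131 and 21.8 CPM in TKO, 0, 0.175 and 0 CPM in CARM1 knockout and 1.22, 0 and 0 CPM in NFIB mutant libraries. No CARM1 knockout library passed 3 counts, and the mean was at least 36.7-fold lower (adjusted p = 0.0885), or at least 1.504-fold without TKO library 3. The call was lost without TKO library 1 or any single CARM1 knockout library (adjusted p = 0.101 to 0.208). Without TKO library 3, which held most of the signal, and CARM1 knockout library 3 it was not called either (adjusted p = 0.611). In contrast with its transcript, chromatin along Gria1 opened in both mutants at 8 of its 11 peaks, all in introns. The largest of these, 80085 bp past the start, was at 0.733, 0.556 and 2.96 CPM in TKO, 16.8, 29.9 and 17.2 CPM in CARM1 knockout and 22.8, 21.2 and 26.6 CPM in NFIB mutant libraries (log2 fold changes 3.93 and 4.08).

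Kainate receptors shape excitatory signalling before and after the synapse, and their GluK4 and GluK5 subunits need a GluK1, GluK2 or GluK3 partner. Grik5 (GluK5) was at 113, 135 and 142 CPM in TKO, 16.4, 32.7 and 41.4 CPM in CARM1 knockout and 29.1, 36.1 and 54.0 CPM in NFIB mutant libraries. It fell with log2 fold changes of -2.11 (SE 0.37, adjusted p = 0.00512) and -1.71 (SE 0.36, adjusted p = 0.00848), yet it remained well above the detection limit in every mutant library. Its start-site peak fell by 1.81 and 1.58 on the log2 scale. Grik4 (GluK4) was at 18.6, 18.8 and 8.46 CPM in TKO, 0.0678, 0.175 and 0.0562 CPM in CARM1 knockout and 0.122, 0 and 0.191 CPM in NFIB mutant libraries, which was at least 75.0-fold and 80.1-fold lower. The start-site peak was at 65.3, 58.7 and 32.8 CPM in TKO against 12.2 to 19.9 CPM and 10.3 to 12.5 CPM. Of its 25 peaks, 20 closed and 1 opened in both mutants.

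Grik3 (GluK3) was at 1.06, 11.2 and 62.7 CPM in TKO, 0, 0 and 0.674 CPM in CARM1 knockout and 0 CPM in all NFIB mutant libraries. The NFIB mutant libraries were at least 131-fold below TKO, or at least 32.0-fold without TKO library 3, and in CARM1 knockout tumors the log2 fold change was -6.72 (SE 2.25, adjusted p = 0.0637), not called without TKO library 2 or 3 or CARM1 knockout library 1 or 2 (adjusted p = 0.105 to 0.145). All 7 of its peaks closed in both mutants. Grik2 (GluK2) was at 4.28, 0.306 and 120.0 CPM in TKO, 0.746, 6.82 and 3.48 CPM in CARM1 knockout and 17.2, 1.30 and 0.318 CPM in NFIB mutant libraries. The groups overlapped and neither comparison was called (adjusted p = 0.221 and 0.302), and without TKO library 3 the log2 fold changes turned to 0.72 and 1.47. At the start-site peak TKO libraries had 5.99, 2.69 and 32.5 CPM and mutant libraries 0.275 to 2.88 CPM. The peak was called lower in both mutants (-2.70 and -4.02), although CARM1 knockout library 2 lay above TKO library 2. Grik5 made up 61.1 to 86.0% of the kainate sum per kilobase in TKO and 81.0 to 99.2% in the mutants.

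**Figure D2:**
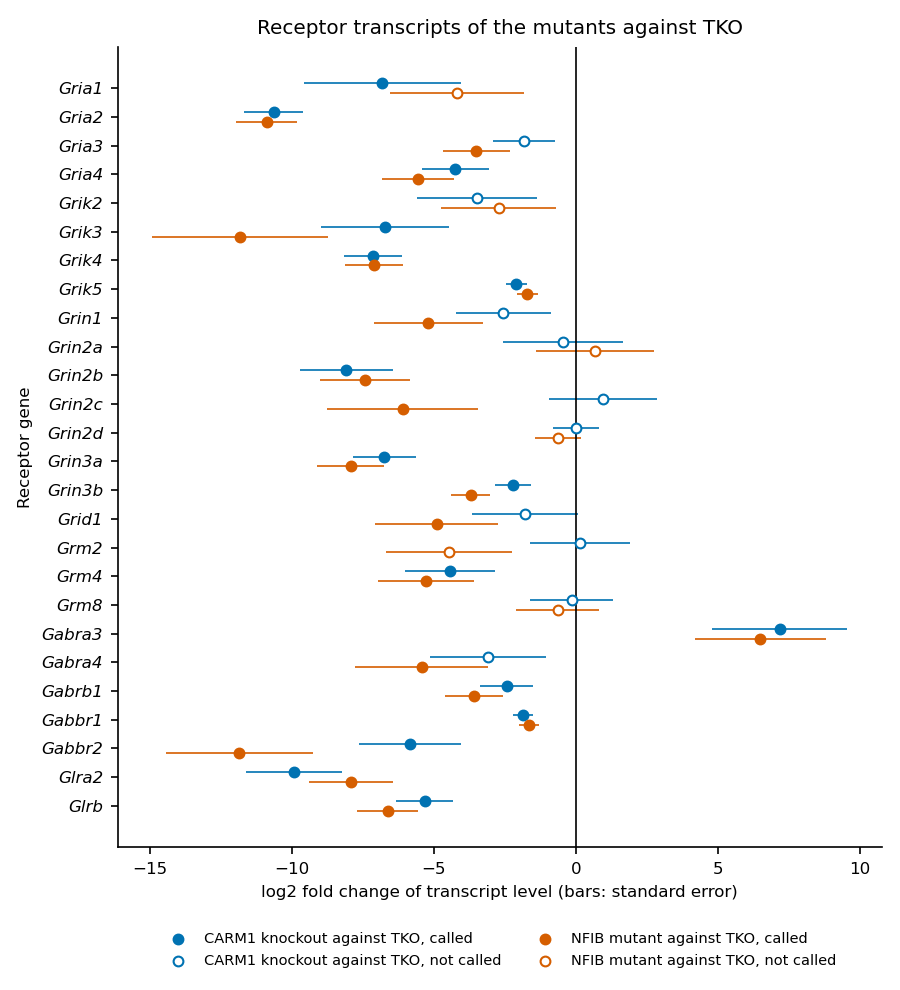
Log2 fold change against TKO of the 26 receptor genes tested (rows), with standard errors, for CARM1 knockout and NFIB mutant tumors. Filled points were called, and 1 gene, Gabra3, lies to the right of 0 among them. The most negative values come from genes at or near 0 counts and depend on the prior count of the fit.

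NMDA receptors need the obligatory GluN1 subunit, encoded by Grin1, and detect coincident presynaptic and postsynaptic activity. Grin1 was at 62.6, 66.8 and 21.3 CPM in TKO, 0.814, 0.175 and 24.4 CPM in CARM1 knockout and 3.47, 0.493 and 0.127 CPM in NFIB mutant libraries. It fell in NFIB mutant tumors (log2 fold change -5.20, SE 1.91, adjusted p = 0.0581). In CARM1 knockout tumors it was not called (-2.56, adjusted p = 0.256), and without CARM1 knockout library 3 it was (-6.62, adjusted p = 0.0217). The NFIB call was lost when any of TKO libraries 1 and 2 or NFIB mutant libraries 2 and 3 was left out (adjusted p = 0.106 to 0.149). Its start-site peak was at 38.2, 41.2 and 16.4 CPM in TKO, 1.96, 1.82 and 7.42 CPM in CARM1 knockout and 3.44, 2.14 and 1.45 CPM in NFIB mutant libraries, with the highest mutant value again in CARM1 knockout library 3. Grin1 shares 1307 exonic bases with Grin1os on the other strand, and the strand setting of the counting is not given in the sources used here.

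Among the GluN2 subunits, which set the kinetics and magnesium block of the channel, Grin2b fell in both mutants and Grin2d was not called in either. Grin2b was at 27.7, 5.03 and 23.5 CPM in TKO, 0.136, 0.0583 and 0 CPM in CARM1 knockout and 0.304, 0 and 0 CPM in NFIB mutant libraries. The fall in CARM1 knockout tumors was at least 92.2-fold (adjusted p = 0.00903) and its log2 fold change in NFIB mutant tumors was -7.43 (SE 1.57, adjusted p = 0.00849), with 7 of its 13 peaks closed in both. Grin2d was at 15.95, 1.36 and 5.495 CPM in TKO, 7.25, 5.02 and 10.6 CPM in CARM1 knockout and 6.26, 5.92 and 2.61 CPM in NFIB mutant libraries. The mutants lay inside the TKO range (log2 fold changes 0.00 with SE 0.81 and -0.62 with SE 0.81, adjusted p = 0.998 and 0.553), and 5 of its 7 peaks were not called in either mutant. Grin2d made up 2.16 to 17.7% of the NMDA sum per kilobase in TKO and 60.7 to 85.5% in the 5 mutant libraries other than CARM1 knockout library 3. In CARM1 knockout library 3 it made up 24.2%, below Grin1 at 38.4% and Grin2c at 32.7%.

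Grin2c was at 0.673, 3.06 and 1.86 CPM in TKO, 0, 0 and 10.8 CPM in CARM1 knockout and 0.0608, 0 and 0 CPM in NFIB mutant libraries. CARM1 knockout library 3 thus exceeded every TKO library, and the log2 fold change in CARM1 knockout tumors was 0.95 (adjusted p = 0.719). Without this library, which leaves 2 libraries at 0 counts, the gene was called lower (adjusted p = 0.0178). The NFIB mutant libraries were at least 9.79-fold below TKO (adjusted p = 0.0959), a call lost when any single TKO or NFIB mutant library was left out (adjusted p = 0.123 to 0.214). Grin2a, with fewer than 3 CPM in every library, was not called, but all 4 of its peaks opened in both mutants.

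The GluN3 subunits form glycine-gated or less calcium-permeable receptors. Grin3a was at 33.0, 5.73 and 86.4 CPM in TKO, 0.407, 0.233 and 0.506 CPM in CARM1 knockout and 0.304, 0.123 and 0.0635 CPM in NFIB mutant libraries. It fell with log2 fold changes of -6.75 (SE 1.10, adjusted p = 0.00407) and -7.93 (SE 1.18, adjusted p = 0.00221). Accessibility at its start was 22.6, 16.4 and 53.0 CPM in TKO and between 0.646 and 1.02 CPM in all mutant libraries. Grin3b was at 2.55, 3.50 and 2.26 CPM in TKO, 0.203, 0.875 and 0.674 CPM in CARM1 knockout and 0.122, 0.308 and 0.191 CPM in NFIB mutant libraries. It fell as well (log2 fold changes -2.23 and -3.70, adjusted p = 0.0284 and 0.00490), while its start-site peak was not called in either (-0.27 and -0.25, adjusted p = 0.526 and 0.551). Grin3b shares 1059 exonic bases with Tmem259 on the other strand, so its counts and its start region are uncertain. Its promoter holds an AP-1 match (TGANTCA, in capitals) starting 124 bases before the start, and is shown because the start was not called while the transcript fell (GRCm38.p6 chr10:79970474-79970773, + strand).
Grin3b promoter: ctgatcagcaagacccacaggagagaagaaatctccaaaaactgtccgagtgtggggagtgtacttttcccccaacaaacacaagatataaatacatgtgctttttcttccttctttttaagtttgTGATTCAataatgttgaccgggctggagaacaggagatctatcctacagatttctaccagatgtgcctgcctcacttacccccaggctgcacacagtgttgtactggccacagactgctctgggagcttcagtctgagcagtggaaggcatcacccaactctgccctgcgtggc

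Grid1 encodes GluD1, a delta receptor that organizes synapses through secreted cerebellins. It was at 17.5, 14.8 and 19.6 CPM in TKO, 0.136, 0.175 and 14.7 CPM in CARM1 knockout and 0, 0.0617 and 1.65 CPM in NFIB mutant libraries. All mutant libraries were below all TKO libraries, yet CARM1 knockout library 3 kept most of the transcript. The test called it in NFIB mutant tumors (log2 fold change -4.91, SE 2.16, adjusted p = 0.0972, not called without any 1 of 5 libraries). In CARM1 knockout tumors it was not called with all libraries (-1.79, adjusted p = 0.473), and 3 of 17 alternatives called it. Leaving out CARM1 knockout library 3 was 1 of these (adjusted p = 0.0377). Its start-site peak was again highest, among mutants, in CARM1 knockout library 3, at 37.0, 34.6 and 30.8 CPM in TKO, 2.35, 2.90 and 9.82 CPM in CARM1 knockout and 2.06, 1.59 and 1.92 CPM in NFIB mutant libraries. All 17 tested peaks of Grid1 closed in both mutants.

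**Figure D3:**
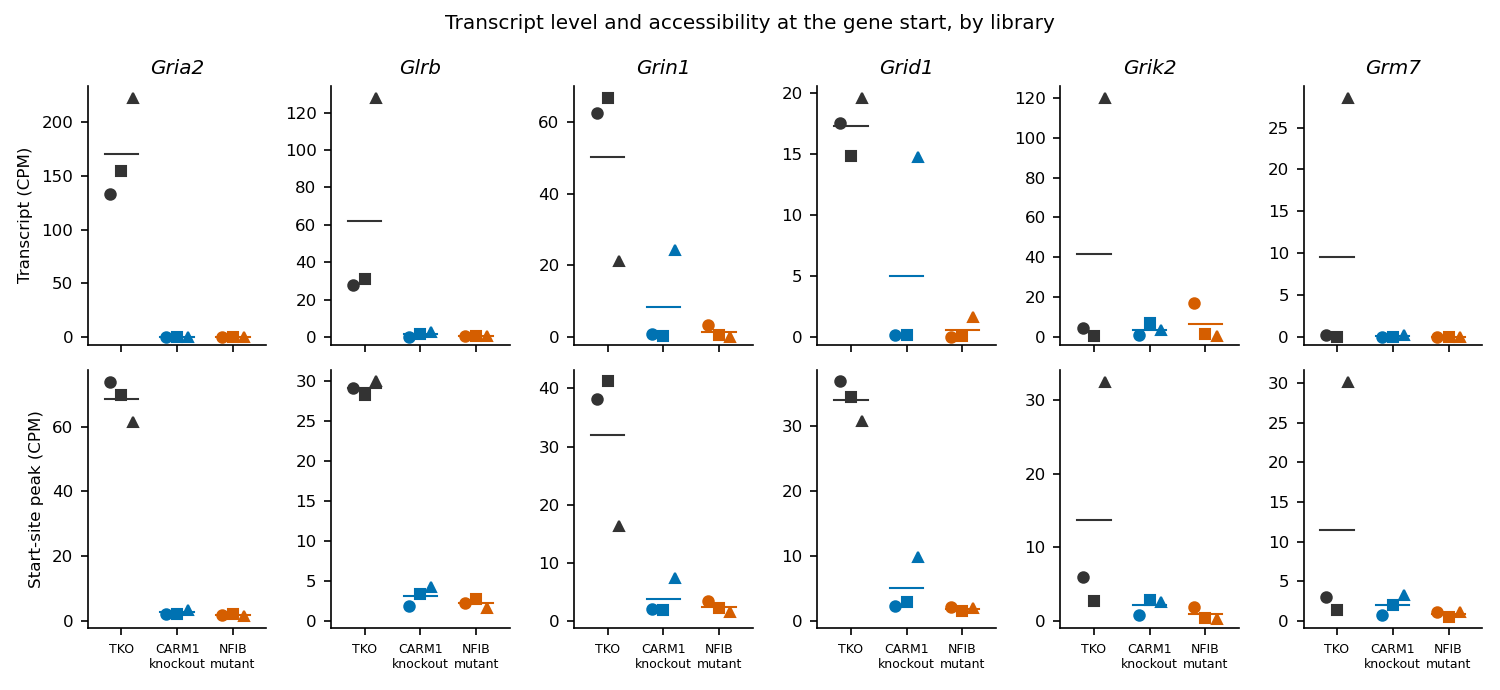
Transcript level (upper row) and accessibility of the start-site peak (lower row), both in CPM, for 6 receptor genes in every library. Circles, squares and triangles are libraries 1, 2 and 3 of a genotype, and the bars are means. The labels do not say whether a number pairs an RNA-seq with an ATAC-seq library. Gria2 and Glrb were low in all mutant libraries, Grin1 and Grid1 kept signal in CARM1 knockout library 3, and Grik2 and Grm7 were high in TKO library 3 alone.

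Metabotropic glutamate receptors were transcribed at low levels. Grm4, a presynaptic receptor that lowers transmitter release, was at 0.577, 6.87 and 0.532 CPM in TKO, 0, 0.175 and 0.169 CPM in CARM1 knockout and 0.182, 0 and 0 CPM in NFIB mutant libraries. It was at least 13.1-fold and 13.95-fold lower (adjusted p = 0.0624 and 0.0377), and at least 2.73-fold and 2.91-fold without TKO library 2, when it was not called (adjusted p = 0.263 and 0.142). The calls were also lost without any single CARM1 knockout library (adjusted p = 0.114 to 0.156) and without NFIB mutant library 2 or 3 (both 0.107). Of its 10 peaks, 9 closed in both mutants, with summed accessibility of 61.3, 73.9 and 54.4 CPM in TKO and 9.05 to 14.7 CPM in the mutants. Grm2, another presynaptic receptor, was at 1.25, 0.437 and 2.88 CPM in TKO, 0, 0 and 5.0 CPM in CARM1 knockout and 0.0608, 0 and 0.127 CPM in NFIB mutant libraries. Neither comparison called it. In CARM1 knockout tumors the log2 fold change was 0.14 (adjusted p = 0.958), and the NFIB mutant mean was at least 7.99-fold lower (adjusted p = 0.134), or at least 4.42-fold without TKO library 3. Without CARM1 knockout library 3 it was called lower in both (adjusted p = 0.0262 and 0.0272).

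Grm7, which has low glutamate affinity, was detected at 28.5 CPM in TKO library 3 and at 0 to 0.281 CPM in the other 8 libraries, and was not tested. Accessibility at its start was 30.2 CPM in TKO library 3 and 0.433 to 3.29 CPM elsewhere. Grm3, Grm5 and Grm8 were under 2 CPM in every library, and Grm8 was called only in NFIB mutant tumors without library 2, as lower (adjusted p = 0.0667). All 4 peaks of Grm3 closed in both mutants, although its transcript did not exceed 0.443 CPM. The start-site peak of Grm8 fell little, at 30.7, 53.7 and 25.3 CPM in TKO, 26.4, 20.5 and 20.1 CPM in CARM1 knockout and 20.9, 18.1 and 14.97 CPM in NFIB mutant libraries (log2 fold changes -0.71 and -1.02). Its promoter, with an AP-1 match in capitals that begins 244 bases before the start, is shown because the start was accessible in all libraries with little transcript (GRCm38.p6 chr6:28135097-28135396, - strand).
Grm8 promoter: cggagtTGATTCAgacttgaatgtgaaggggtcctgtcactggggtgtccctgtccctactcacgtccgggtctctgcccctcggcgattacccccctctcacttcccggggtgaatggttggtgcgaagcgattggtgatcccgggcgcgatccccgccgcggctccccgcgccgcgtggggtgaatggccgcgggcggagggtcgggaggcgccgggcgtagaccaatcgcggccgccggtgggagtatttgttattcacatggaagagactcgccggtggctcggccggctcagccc

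GABA-A receptor genes on the list had low levels, and 5 of the 8 had too few counts to test. Gabra4 (alpha4) was at 8.31, 0.0875 and 8.86 CPM in TKO, 1.90, 0.117 and 0 CPM in CARM1 knockout and 0, 0 and 0.381 CPM in NFIB mutant libraries. It was called in NFIB mutant tumors only (log2 fold change -5.44, SE 2.34, adjusted p = 0.0919; -3.10 and 0.259 in CARM1 knockout), and the call was lost without any 1 of 6 libraries. Its neighbour Gabrb1 (beta1), whose start lies head to head with that of Gabra4, was at 2.84, 0.831 and 2.48 CPM in TKO, 0.542, 0.408 and 0.169 CPM in CARM1 knockout and 0.243, 0.247 and 0 CPM in NFIB mutant libraries. Gabrb1 fell in both (log2 fold changes -2.44 and -3.59, adjusted p = 0.0763 and 0.0235), in CARM1 knockout tumors with no call once 1 of 7 of the libraries was left out. The peak the pair shares was at 6.76, 0.649 and 16.9 CPM in TKO, 3.10, 1.17 and 0.556 CPM in CARM1 knockout and 0.389, 0.313 and 1.47 CPM in NFIB mutant libraries. Gabra2 (alpha2) was at 6.38 CPM in TKO library 3 and at most 0.0608 CPM elsewhere, and its start-site peak was 15.5 CPM in that library and at most 1.05 CPM elsewhere.

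Gabra3 (alpha3, X-linked) was the only receptor gene called higher. It was at 0, 0 and 0.133 CPM in TKO, 9.36, 0.467 and 12.8 CPM in CARM1 knockout and 11, 0 and 2.99 CPM in NFIB mutant libraries. It was undetected or nearly so in all TKO libraries and in NFIB mutant library 2. No TKO library passed 3 counts, and the mean rose at least 52.2-fold (adjusted p = 0.0483) and 32.4-fold (adjusted p = 0.0532). Both calls were lost without TKO library 1 or 2 (adjusted p = 0.126 to 0.136), and that in NFIB mutant tumors without NFIB mutant library 1 (0.126). Its only peak, deep in the gene, was at 0 to 0.127 CPM in TKO, 0.594, 0.365 and 1.499 CPM in CARM1 knockout and 0.687, 0.0722 and 1.71 CPM in NFIB mutant libraries, and was called higher in both.

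Gabrg3 (gamma3) was almost untranscribed but changed along most of its length. The transcript was 0 in TKO, 0.542, 0.350 and 0.506 CPM in CARM1 knockout and 0.0608, 0 and 0 CPM in NFIB mutant libraries. Of its 20 peaks, 19 opened with CARM1 lost and 17 with NFIB mutated. Summed over its 20 peaks, accessibility was 4.88, 2.75 and 8.16 CPM in TKO, 76.1, 47.6 and 55.9 CPM in CARM1 knockout and 46.1, 4.50 and 61.1 CPM in NFIB mutant libraries, so NFIB mutant library 2 lay within the TKO range. Its start-site peak was not called (0.38 and -1.001, adjusted p = 0.692 and 0.295). The promoter holds an NFI half-site (TTGGCA, in capitals) 200 bases before the start, the only such promoter of 34, where 14.1% of all promoters held it. It is shown because the start was not called while peaks further in opened (GRCm38.p6 chr7:57387166-57387465, - strand).
Gabrg3 promoter: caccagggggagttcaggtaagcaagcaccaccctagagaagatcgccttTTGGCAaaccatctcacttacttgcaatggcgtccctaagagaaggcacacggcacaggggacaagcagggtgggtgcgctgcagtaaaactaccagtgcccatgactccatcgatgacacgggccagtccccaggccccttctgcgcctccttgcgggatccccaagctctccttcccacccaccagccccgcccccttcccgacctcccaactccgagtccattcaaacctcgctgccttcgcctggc

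The GABA-B receptor needs GABBR1 to bind GABA and GABBR2 to reach the surface and signal, and the transcripts of the pair changed unequally. Gabbr1 was at 66.0, 72.3 and 136 CPM in TKO, 21.9, 27.2 and 26.2 CPM in CARM1 knockout and 27.7, 19.6 and 39.2 CPM in NFIB mutant libraries. It fell by 1.87 (SE 0.35, adjusted p = 0.00683) and by 1.67 (SE 0.35, adjusted p = 0.00814) on the log2 scale. Gabbr2 was at 26.5, 17.9 and 32.1 CPM in TKO, 0, 0 and 1.29 CPM in CARM1 knockout and 0 CPM in all NFIB mutant libraries. This was a log2 fold change of -5.85 (SE 1.79, adjusted p = 0.0497, or 0.105 without TKO library 1) in CARM1 knockout tumors, and a fall of at least 134-fold in NFIB mutant tumors (adjusted p = 0.0152). Gabbr2 made up 21.5 to 31.8% of the sum of both per kilobase in TKO, 5.41% in CARM1 knockout library 3 and none in the other mutant libraries.

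Chromatin at the pair also changed unequally. The start-site peak of Gabbr1 was at 45.5, 49.3 and 35.8 CPM in TKO, 25.9, 31.6 and 27.5 CPM in CARM1 knockout and 29.1, 30.1 and 33.3 CPM in NFIB mutant libraries (log2 fold changes -0.62 and -0.50, the second not called). The 2 peaks further inside Gabbr1, 15901 and 24130 bp past the start, opened in both mutants. The start-site peak of Gabbr2 was at 36.3, 28.5 and 39.5 CPM in TKO, 1.83, 3.02 and 6.05 CPM in CARM1 knockout and 4.30, 2.41 and 3.79 CPM in NFIB mutant libraries. Of the 21 peaks of Gabbr2, 19 closed and 2 opened in both mutants, and their sum was 162, 145 and 135 CPM in TKO against 16.7 to 24.8 CPM in the mutants.

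Glycine receptors pair alpha subunits with the beta subunit encoded by Glrb, which anchors them to gephyrin. Glrb was at 27.9, 31.0 and 128 CPM in TKO, 0.203, 1.81 and 2.58 CPM in CARM1 knockout and 0.426, 0.740 and 0.699 CPM in NFIB mutant libraries. It fell with log2 fold changes of -5.33 (SE 1.01, adjusted p = 0.00696) and -6.63 (SE 1.08, adjusted p = 0.00312). Accessibility at its start was nearly equal across TKO, at 29.2, 28.3 and 30.04 CPM, and was 1.83 to 4.26 CPM and 1.63 to 2.79 CPM in the mutants. Glra2 (alpha2) was at 10.6, 1.09 and 8.42 CPM in TKO, 0 CPM in all CARM1 knockout libraries and 0.0608, 0 and 0 CPM in NFIB mutant libraries, which was at least 32.9-fold and 35.1-fold lower (adjusted p = 0.00862 and 0.00904). Glra1 and Glra3 did not exceed 0.610 CPM in any library.

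Of the 21 genes with both a tested transcript and a start-site peak, 14 were called lower in transcript in CARM1 knockout tumors, and 12 of these were called lower at the start-site peak. In NFIB mutant tumors 14 of 17 were. Whatever the transcript call, 18 and 17 of all 21 genes had a start-site peak called lower, so these overlaps were near the shares over all 21. Across these genes the transcript and start-site fold changes had a Pearson r of 0.50 (Spearman rho 0.55) in CARM1 knockout and 0.51 (rho 0.42) in NFIB mutant tumors. These are given as a description, since genes share libraries and Gabra4 and Gabrb1 share a peak. Genes at or near 0 counts also enter with fitted values that depend on the prior count. Gria1 stood apart with a lower transcript value and a start-site peak that was low in all groups, at no more than 2.93 CPM.

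**Figure D4:**
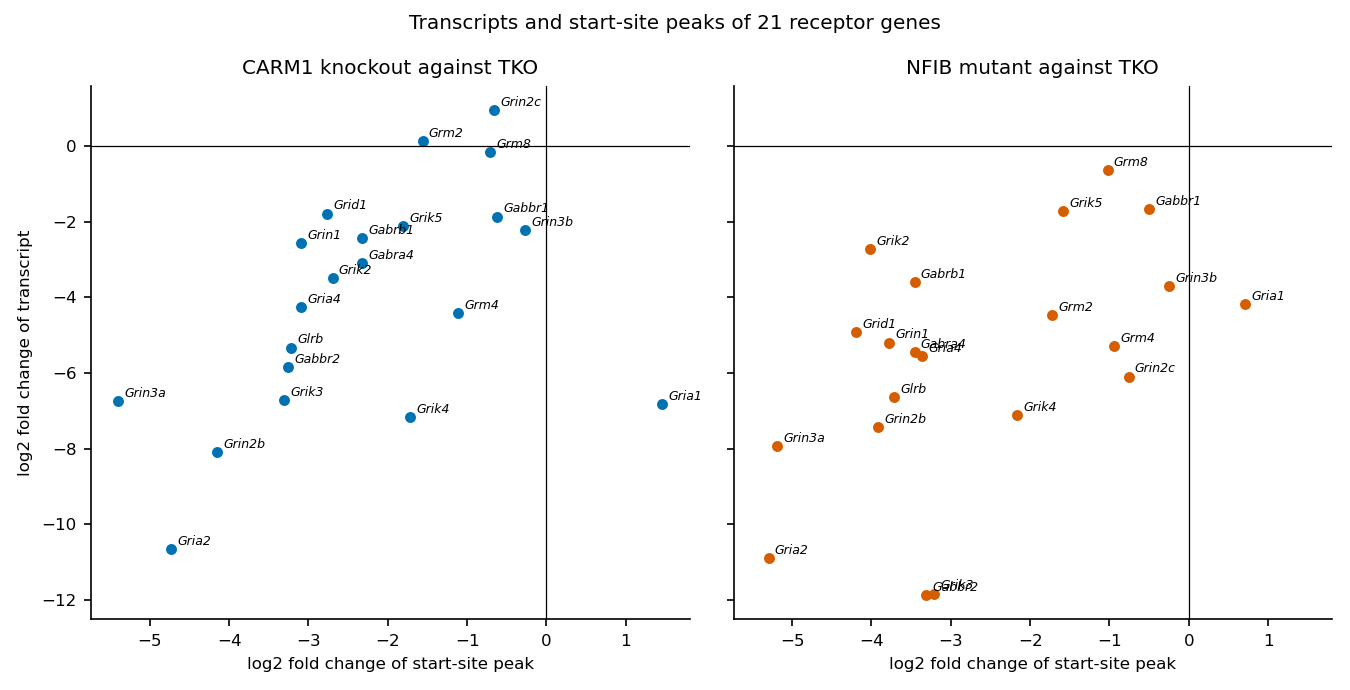
Log2 fold change of the transcript against that of the start-site peak for 21 receptor genes, in CARM1 knockout (left) and NFIB mutant (right) tumors against TKO. Most genes lie at the lower left, with Gria2 and Grin3a farthest to the left and Grin3b and Gabbr1 among those near 0 on the horizontal axis.

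Among receptor peaks called alike in both mutants, with no overlap of mutant and TKO libraries and a mean of at least 3 on the log2 CPM scale in the higher genotype, the 5 largest falls were 2 introns of Grid1, the starts of Grin3a and Gria2, and an intron of Gabbr2. The Grid1 peak 269109 bp past the start was at 24.9, 30.5 and 3.38 CPM in TKO and 0.236 to 0.594 CPM in the mutants (log2 fold changes -5.35 and -5.84), and that at 48966 bp was at 13.7, 33.3 and 7.52 CPM in TKO (-5.95 and -5.07). The Gabbr2 peak 76233 bp past the start was at 11.9, 9.15 and 9.47 CPM in TKO and 0.0481 to 0.532 CPM in the mutants (-4.82 and -5.67). Only 3 rises met the rule, all in introns. Besides that of Gria1, the peak of Grik2 637000 bp past the start was at 1.08, 1.17 and 1.61 CPM in TKO and 6.96 to 11.2 CPM in the mutants (2.93 and 2.87), and that of Grik4 331601 bp past the start was at 5.29, 1.48 and 2.92 CPM in TKO and 7.94 to 17.9 CPM in the mutants (1.67 and 1.83).

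The middle 300 bases of these peaks were read from GRCm38 on the + strand, 1 per gene, to show what closing and opening receptor sequences hold. Capitals mark any match to an NFI half-site (TTGGCA), an NFI palindrome (TTGGC and GCCAA with 5 bases between), RE1, a CAGCTG E-box or AP-1 (TGANTCA), on either strand. The Grid1 stretch holds 1 NFI half-site, the Gabbr2 stretch 1 E-box and the Gria1 stretch 2 AP-1 matches, and the other 3 hold none. The Grin3a stretch lies in an exon and the others in introns. The closed stretches come first (Grid1 chr14:35089068-35089367, Grin3a chr4:49844776-49845075, Gabbr2 chr4:46915491-46915790), then the opened ones (Gria1 chr11:57091323-57091622, Grik2 chr10:49151617-49151916, Grik4 chr9:42612743-42613042).
Grid1 closed: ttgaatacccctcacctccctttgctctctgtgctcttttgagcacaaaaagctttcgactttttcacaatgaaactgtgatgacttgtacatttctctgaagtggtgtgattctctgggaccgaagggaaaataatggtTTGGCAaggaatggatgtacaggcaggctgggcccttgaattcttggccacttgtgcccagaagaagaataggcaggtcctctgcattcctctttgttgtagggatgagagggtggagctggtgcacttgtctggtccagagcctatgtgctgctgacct
Grin3a closed: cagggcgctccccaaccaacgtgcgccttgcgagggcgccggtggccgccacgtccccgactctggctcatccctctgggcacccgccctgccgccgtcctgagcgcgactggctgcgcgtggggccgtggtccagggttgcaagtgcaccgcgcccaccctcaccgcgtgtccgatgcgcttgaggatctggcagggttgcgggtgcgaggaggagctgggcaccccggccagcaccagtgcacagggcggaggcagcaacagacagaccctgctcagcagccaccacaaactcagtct
Gabbr2 closed: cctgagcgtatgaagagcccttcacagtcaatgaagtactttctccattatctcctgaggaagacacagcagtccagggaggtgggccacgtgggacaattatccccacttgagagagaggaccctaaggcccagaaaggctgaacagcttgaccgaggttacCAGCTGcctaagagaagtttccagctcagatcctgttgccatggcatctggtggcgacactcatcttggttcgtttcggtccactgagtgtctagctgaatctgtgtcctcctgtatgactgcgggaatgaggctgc
Gria1 opened: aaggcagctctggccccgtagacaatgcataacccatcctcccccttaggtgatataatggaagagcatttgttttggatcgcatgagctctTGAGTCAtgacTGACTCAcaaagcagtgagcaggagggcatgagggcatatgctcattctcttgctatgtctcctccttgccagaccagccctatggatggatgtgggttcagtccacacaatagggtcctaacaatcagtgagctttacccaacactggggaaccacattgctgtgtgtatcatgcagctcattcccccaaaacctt
Grik2 opened: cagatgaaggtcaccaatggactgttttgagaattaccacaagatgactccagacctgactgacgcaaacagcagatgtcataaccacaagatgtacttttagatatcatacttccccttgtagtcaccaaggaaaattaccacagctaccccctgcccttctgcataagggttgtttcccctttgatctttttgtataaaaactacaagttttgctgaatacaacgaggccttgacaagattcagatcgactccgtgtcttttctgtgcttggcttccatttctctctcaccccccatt
Grik4 opened: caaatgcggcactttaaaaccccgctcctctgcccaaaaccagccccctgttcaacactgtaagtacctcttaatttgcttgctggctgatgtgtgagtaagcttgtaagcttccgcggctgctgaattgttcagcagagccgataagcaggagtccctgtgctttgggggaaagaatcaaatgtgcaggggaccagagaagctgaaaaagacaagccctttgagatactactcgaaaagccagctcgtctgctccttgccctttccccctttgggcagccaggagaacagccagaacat

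In the same way, the middle 300 bases of every receptor peak were searched, and the shares with a match are given beside those of all peaks that moved the same way. AP-1 was in 17 of the 42 receptor peaks higher in both mutants (40.5%, against 41.7% of all 38894 such peaks) and in 9 of the 119 lower in both (7.56%, against 7.89% of 34171). The NFI half-site was in 7 of the 42 (16.7%, against 19.2%) and in 36 of the 119 (30.3%, against 27.2%). The E-box was in 6 of the 42 (14.3%, against 18.8%) and 31 of the 119 (26.1%, against 28.2%). RE1 was in 2 of the 119, beside 0.0878% of all such peaks. These were an intron peak of Grin3a and the Gria2 peak, whose middle lies 1029 bp past the start, so that its match is another than the promoter match above. The NFI palindrome was in none of the receptor peak middles. A match is a description of the letters and not a binding site.

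**Figure D5:**
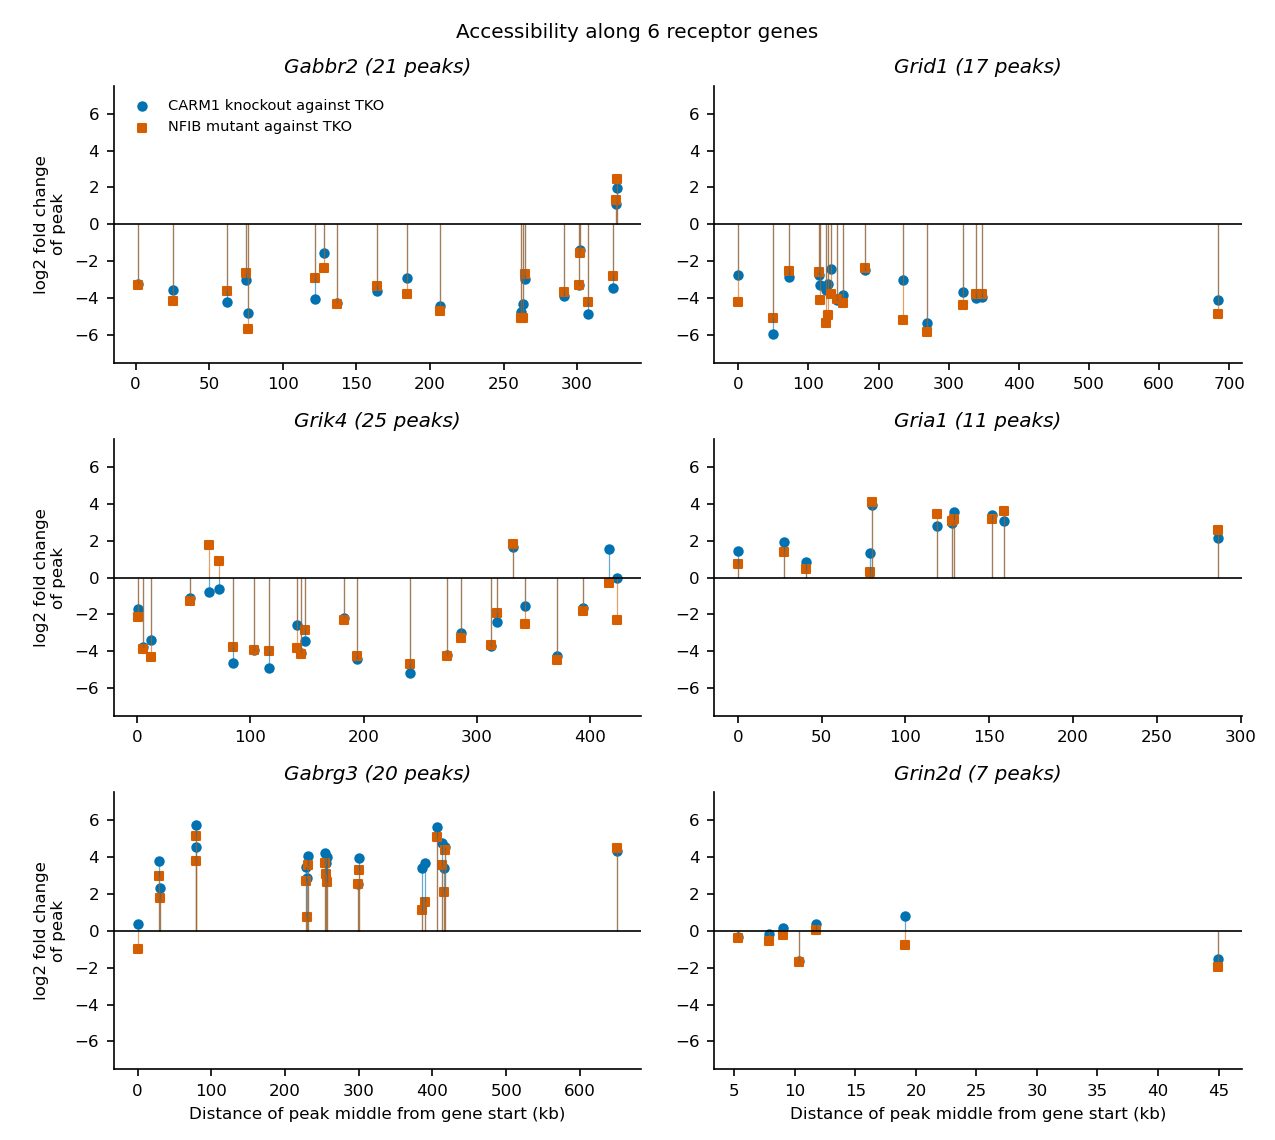
Log2 fold change against TKO of each tested ATAC-seq peak (vertical axis) by the distance of its middle from the gene start in kb (horizontal axis), for 6 receptor genes. Most peaks of Gabbr2 and Grik4 and all of Grid1 lie below 0, those of Gria1 and Gabrg3 lie mostly above 0, and 5 of the 7 of Grin2d were not called.

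Of 78 listed genes that act with these receptors, 58 were tested. In CARM1 knockout tumors 19 were lower and 4 higher, where 18.3% of all genes were lower and 20.5% higher. In NFIB mutant tumors 26 were lower and 5 higher, where 23.5% and 22.3% of all genes were. Of 9 tested AMPA auxiliary subunits, 3 fell in CARM1 knockout tumors and 6 with mutant NFIB, among them Cacng7 from 108 to 27.0 and 12.98 CPM (means; log2 fold changes -2.0002 and -3.06), Cacng5 and Cnih2. Of the kainate auxiliary subunits Neto2 fell in both, from 95.5 to 25.5 and 3.42 CPM. Of 18 scaffolds of excitatory synapses, 6 and 8 fell and 1 rose in both. Grip2, which binds AMPA receptors, fell from 21.1 to 0.0375 and 0.0411 CPM, and Dlg1 (SAP97) rose from 69.4 to 150.2 and 164 CPM. Dlg4 (PSD-95) was not called, with group means of 73.9, 54.1 and 66.5 CPM.

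On the inhibitory side, Gphn (gephyrin) fell with log2 fold changes of -1.06 and -1.37 and Lhfpl4, which anchors GABA-A receptors, with -3.06 and -3.69. Counting both, 3 of 6 scaffolds fell in CARM1 knockout tumors and 4 with mutant NFIB, and Gabarap rose in both (0.83 and 1.24). Slc12a5 (KCC2), the chloride exporter that makes GABA inhibitory, fell from 57.4 to 2.87 and 1.95 CPM, and Slc12a2 (NKCC1) was not called (adjusted p = 0.264 and 0.591). Of the 2 glycine transporters, Slc6a5 (GlyT2) fell from a mean of 14.1 to 0.0389 and 0.447 CPM and Slc6a9 (GlyT1) rose with 1.31 and 1.09. Abat, which degrades GABA, fell from 68.7 to 5.92 and 6.13 CPM, and 3 and 2 of 4 tested GABA synthesis and transport genes fell. The transporter Slc6a12 was called higher in NFIB mutant tumors (mean 0.495 to 22.8 CPM, log2 fold change 5.51, adjusted p = 0.0601), where library 2 was at 67.0 CPM and libraries 1 and 3 were at 0.608 and 0.762 CPM. Of 8 tested glutamate synthesis and transport genes, Gls2 fell in both, and the transporter Slc1a6 rose from 0.0308 to 11.2 and 5.73 CPM.

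The 3 RNA editing genes Adar, Adarb1 and Adarb2 were not called in either mutant, and no deposited count reports editing itself.

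The mutants were then compared with each other, which is the test of a difference between them. No receptor gene was called, where 0.0% of all genes were called in either direction (1414 of 15514 at an unadjusted p under 0.05, and 1 of the 26 receptor genes). The smallest adjusted p of a receptor gene was 0.526. DESeq2 called 1.89% of its 16763 genes higher and 1.33% lower with CARM1 lost than with NFIB mutated, among them 1 receptor gene, Grin2c (higher, adjusted p = 0.0944), whose level in CARM1 knockout came from library 3 alone. No receptor peak was called either, where 0.0% of all peaks were (6813 of 111116 at an unadjusted p under 0.05, and 14 of the receptor peaks). DESeq2 called 523 of its 111002 peaks higher and 537 lower (0.471% and 0.484%), and 2 of these were receptor peaks, in an intron of Gabrb2 (log2 fold change -3.69, adjusted p = 0.00809) and in an intron of Grik4 (-2.61, adjusted p = 0.0366). The Gabrb2 peak was at 14.4 CPM in NFIB mutant library 3 and at 0.266 to 2.03 CPM in the other mutant libraries. A difference that misses the threshold with 3 libraries a genotype does not show that the mutants were alike, and for Grin1 and Grid1 the log2 difference between them was 2.63 (SE 1.71) and 3.12 (SE 2.0006).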

How the data were processed

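RNA-seq and ATAC-seq libraries of 3 genotypes, 3 each, were analysed. As deposited, the RNA-seq values were raw counts per gene that the authors made with Trim Galore, HISAT2 and HTSeq on GRCm38, and the ATAC-seq values were raw counts per peak after Bowtie2, with MACS2 named in the study's methods and Genrich in the labels, so the peak caller is unsettled. Rows that name no gene were left out (no_feature rows were 10.0 to 12.2% of counts in TKO and 3.65 to 5.17% in mutant libraries). The strand setting of the counting is not given in the sources used here. From these counts, edgeR 4.0.16 (R 4.3.3) was run with filterByExpr, TMM scaling and robust quasi-likelihood fits, in 1 model of 9 libraries per assay, with Benjamini-Hochberg adjustment over all features tested. DESeq2 1.42.0, other scalings, other filters, a replicate block and leaving out each library were alternatives. The script was tested on simulated data. Where every library of a group had 3 counts or fewer, folds were computed against 3 counts per library as bounds. Genes with a mean of at least 1 CPM that were called, or had that mean in TKO, are given per library. Outside the replicate block, replicate numbers were not used to pair the samples. The receptor genes, gene lists and tests were chosen with earlier results of these data known. The labels give 3 animals per genotype, so p-values measure the spread between animals. Columns of the deposited tables were matched to samples by genotype and number in their names. Some genes of the marker and pathway lists are counted in their lists but not reported here by name.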

Additional observations from a re-analysis of the deposited data

How the results depend on the processing

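Of 806 alternative values for 48 receptor gene comparisons, 706 kept their direction and side of the threshold, 78 lost the call, 11 gained one and 11 changed sign, and of 990 for start-site peaks 934 kept both. The calls of 16 and 20 receptor genes (CARM1 knockout and NFIB mutant against TKO) ranged from 12 to 18 and 14 to 22, and those of 167 and 168 peaks from 159 to 169 and 157 to 169, when 1 library was left out, with 0 calls between the mutants. Under a minimum of 10 counts per library, 3 genes and 93 peaks could be tested, which gave 2 and 2 genes and 66 and 69 peaks. DESeq2 called 1 gene and 2 peaks between the mutants. With a replicate block the counts were 14, 18 and 0 genes and 156, 160 and 0 peaks. Same-numbered libraries of different genotypes, each centred on its genotype mean, correlated at -0.30 to 0.12 (RNA-seq) and -0.14 to 0.12 (ATAC-seq). These values give no sign of pairing by number, but after centring within so few libraries they cannot exclude it.

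Among the genes given per library and the start-site peaks, these sign changes were seen, on the log2 scale, and their cause was not tested beyond the library left out. Without 1 library, Grin2d (NFIB mutant) ranged from -1.12 to 0.53, Grin2c (CARM1 knockout) from -8.08 to 1.53, Grm2 (CARM1 knockout) from -7.80 to 1.0035 (the lowest values of both from libraries at 0 counts, so that they depend on the prior count and are no bound), Grik2 from -4.28 to 0.72 and from -5.66 to 1.47, and the Gria1 start-site peak (NFIB mutant) from -0.52 to 1.53. Grin2d in CARM1 knockout tumors, at 0.00 with all libraries, spanned -0.50 to 1.16 over its alternatives. Of genes not given per library, Grin2a went from -0.45 to 4.02 (CARM1 knockout, without TKO library 3) and from 0.66 to -3.25 (NFIB mutant, without its library 1), and Grm8 from -0.15 to 0.46 (CARM1 knockout, without TKO library 2). The replicate block gave -1.88 for Grin2c and -2.11 for Grm2. Leaving out both TKO library 3 and CARM1 knockout library 3, chosen after seeing the data, gave 0.43 for Gria1 (NFIB mutant), -8.03 for Grin2c, and 0.77 and 1.48 for Grik2. Scaling by library totals alone, which shifted the median of all peaks by 0.57, gave 0.31 and 0.32 for the Grin3b start-site peak and 0.093 for that of Gabbr1 (NFIB mutant), and turned the split of all peaks to 47.3% higher and 24.5% lower and to 47.4% and 26.3%. At 3 animals per genotype, genes near the 3-count limit have no measurable fold beyond their bounds.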
